A study of Mus musculus with 4 samples.

Results

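The serum amyloid A family of the mouse liver was described gene by gene, probe by probe and animal by animal. Its 4 genes, Saa1, Saa2, Saa3 and Saa4, were taken by their deposited symbols and were read by 6 probes, against 20668 named genes and 26110 genes in all that were tested on the same arrays. The family was selected on its measured log2 ratios in this comparison, which were low, so those ratios are given as a description with no test. The treated animals were male Wrn mutant C57Bl/6 mice, 3 months old, that had received 0.4% vitamin C in their drinking water since weaning. They were compared with untreated wild-type C57Bl/6 males of the same age, and all animals were kept on a reversed light-dark cycle with free access to food and water. Wrn encodes a RecQ-type DNA helicase, and the labels give no further detail of the mutant allele. Each of 4 two-colour Agilent arrays carried liver RNA of 1 mutant given vitamin C, labelled with Cy5, and of 1 wild-type animal, labelled with Cy3, and the labels call the 4 pairs independent biological replicates. Genotype, vitamin C and dye changed together on every array and cannot be told apart.

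Serum amyloid A proteins are small apolipoproteins of the acute phase response, the change in plasma proteins that the liver makes during infection, injury or inflammation. Interleukin-1, interleukin-6 and tumour necrosis factor act on hepatocytes through NF-kB, STAT3 and C/EBP factors, and Saa1 and Saa2 are then among the most strongly induced liver genes. Their products circulate on high-density lipoprotein (HDL) and are the precursors of AA amyloid. In the mouse, Saa3 is also made by macrophages and adipocytes, and Saa4 is regarded as the constitutive member of the family.

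The probes are 60-base oligonucleotides, and they are shown because closely related genes can share signal through similar probes. The capitals mark the longest run that any 2 of them have in common.
Saa1 A_52_P318673: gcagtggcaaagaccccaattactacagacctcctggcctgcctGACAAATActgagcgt
Saa1 A_51_P361650: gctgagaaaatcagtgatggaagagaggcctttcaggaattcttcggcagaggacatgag
Saa2 A_51_P166886: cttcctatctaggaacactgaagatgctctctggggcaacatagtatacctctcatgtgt
Saa3 A_51_P337308: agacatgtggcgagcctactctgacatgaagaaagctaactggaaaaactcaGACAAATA
Saa4 A_52_P404329: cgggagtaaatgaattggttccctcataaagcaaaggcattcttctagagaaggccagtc
Saa4 A_51_P142529: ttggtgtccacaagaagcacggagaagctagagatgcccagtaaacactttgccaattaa
That run is 8 bases long and joins the Saa1 probe A_52_P318673 to the Saa3 probe. The other pairs shared runs of 5 to 7 bases, and no other probe on the array shared 16 bases with any of the 6. The probes therefore differ from one another in sequence. How far each probe also pairs with the transcripts of the other members was not tested. The deposited annotation pairs the Saa3 probe with 2 RefSeq accessions, of which 1 is that of Saa1. In RefSeq the names Saa1 and Saa2 have also been exchanged in the past, since each is listed as an older symbol of the other.

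All members lie on chromosome 7, in the order Saa3, Saa4, the pseudogene Saa-ps, Saa1 and Saa2, beside the neighbour Saal1. The 250 bases before each start site are shown because the members differed in their log2 ratios. A link between these bases and the ratios was not tested. Sequences and coordinates are from RefSeq on GRCm38.p6, read on the gene's strand. The array annotation was made on mm9, from which no coordinates are given. Capitals mark matches to the C/EBP core TTNNGNAA on either strand.
Saa1 chr7:46742981-46743230 (minus strand): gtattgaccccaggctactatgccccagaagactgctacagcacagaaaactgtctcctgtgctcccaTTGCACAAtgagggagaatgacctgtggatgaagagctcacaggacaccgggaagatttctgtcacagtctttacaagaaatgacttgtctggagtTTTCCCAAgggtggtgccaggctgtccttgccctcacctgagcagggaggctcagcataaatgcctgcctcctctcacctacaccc
Saa2 chr7:46751583-46751832 (plus strand): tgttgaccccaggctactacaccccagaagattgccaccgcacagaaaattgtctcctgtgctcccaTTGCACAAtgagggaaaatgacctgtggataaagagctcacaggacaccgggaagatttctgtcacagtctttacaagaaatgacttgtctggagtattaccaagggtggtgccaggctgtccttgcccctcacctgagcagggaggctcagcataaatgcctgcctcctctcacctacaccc
Saa3 chr7:46715677-46715926 (minus strand): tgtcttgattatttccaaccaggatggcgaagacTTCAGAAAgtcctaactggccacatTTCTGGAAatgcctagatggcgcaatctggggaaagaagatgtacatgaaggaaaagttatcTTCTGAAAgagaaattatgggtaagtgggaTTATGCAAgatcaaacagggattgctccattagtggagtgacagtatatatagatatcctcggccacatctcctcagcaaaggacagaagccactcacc
Saa4 chr7:46732604-46732853 (minus strand): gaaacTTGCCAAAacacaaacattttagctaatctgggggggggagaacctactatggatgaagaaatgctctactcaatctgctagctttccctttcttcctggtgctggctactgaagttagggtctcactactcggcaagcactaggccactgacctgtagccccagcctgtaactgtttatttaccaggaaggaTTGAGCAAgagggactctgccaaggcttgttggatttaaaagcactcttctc
The Saa1 and Saa2 windows were identical at 238 of 251 aligned columns (94.8%), while the other pairs were identical at 43.8% to 48.5% of columns. The C/EBP core was found 2 times before Saa1, 1 time before Saa2, 4 times before Saa3 and 2 times before Saa4, and 36.8% of 32851 RefSeq promoter windows of this length hold at least 1 match. An NF-kB core, GGNNTTTCC on either strand, was found only in the Saa3 window among the 4, 187 bases before the start, where it overlaps the C/EBP match at 191 bases. Of all windows, 4.9% hold it. The search took these letters at this spacing alone, so an NF-kB site spaced otherwise in any window would be missed. The STAT letters TTCNNNGAA and the TATA letters TATAAA were not in any of the 4 windows, and 7.0% and 12.4% of all windows hold them.

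Well above background were 82.5% to 95.6% of non-control probes in the mutant channels and 84.2% to 96.1% in the wild-type channels. The probe of Wrn was at 0.00 ± 0.02 (log2 ratio, mutant over wild type; SD, n = 4; limma adjusted p = 0.979), and since the allele is not described this checks no label. Hepatocyte transcripts were bright in every channel: the summed level of 10 hepatocyte markers was 1197974 to 1338445 units in mutants and 947754 to 1219863 units in wild-type animals. Across the array, limma called 3087 of 26110 genes (11.8%) at the adjusted p threshold of 0.05, with 1378 lower (5.28%) and 1709 higher (6.55%). Leaving out any array lowered this count, to 322 without array 1, 9 without array 2, 977 without array 3 and 378 without array 4. A fit of fewer arrays also has less power, and that share of the drop was not separated. The count was 24 when the pairing of the channels was ignored.

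The Saa1, Saa2 and Saa3 signals were lower in the mutant than in its wild-type partner on each array, and the distance between them was widest on array 4. All 6 probes had 1 spot per array, were well above background in all 8 channels and carried no saturation or outlier flag. The Saa2 probe had median spot signals, in scanner units before any normalization, of 29534, 24660, 58872 and 82944 in mutants 1, 2, 3 and 4, against 40462, 91143, 157127 and 498050 in wild-type animals 1, 2, 3 and 4. The Saa1 probe A_52_P318673 had 24572, 20603, 47816 and 71586 in the mutants and 38659, 73773, 132421 and 495206 in the wild-type animals. In both genes the wild-type signals covered a much wider span than the mutant signals, 12.3-fold in wild type against 3.36-fold in mutants for Saa2, and wild-type animal 4 was the highest of all. The second Saa1 probe, A_51_P361650, had 15713, 13681, 36126 and 75692 in mutants and 31527, 68649, 124514 and 495065 in wild-type animals. Within each group it ordered the animals as the first probe did, with mutant 2 lowest and wild-type animal 4 highest.

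The Saa3 probe had 3624, 2887, 7328 and 27650 in mutants and 7201, 14409, 27437 and 238156 in wild-type animals. Saa3, the member that macrophages and adipocytes also make, had the widest span of the family, 9.58-fold among mutants and 33.1-fold among wild-type animals. On array 4 the Saa2 probe and both Saa1 probes were the 3 brightest of 43379 spots in the wild-type channel, and the next spot had 302661 units. Saa3 ranked 10 there. In the wild-type channel of array 1 the same probes ranked between 740 and 991, and Saa3 ranked 3737, so the place of these transcripts among all transcripts differed widely between wild-type animals. The signals of 495065 to 498050 of the 3 brightest spots lie close together and near the highest Cy5 signal of that array, 550573, so a ceiling that no flag records would make their wild-type level on array 4 a lower limit.

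**Figure D1:**
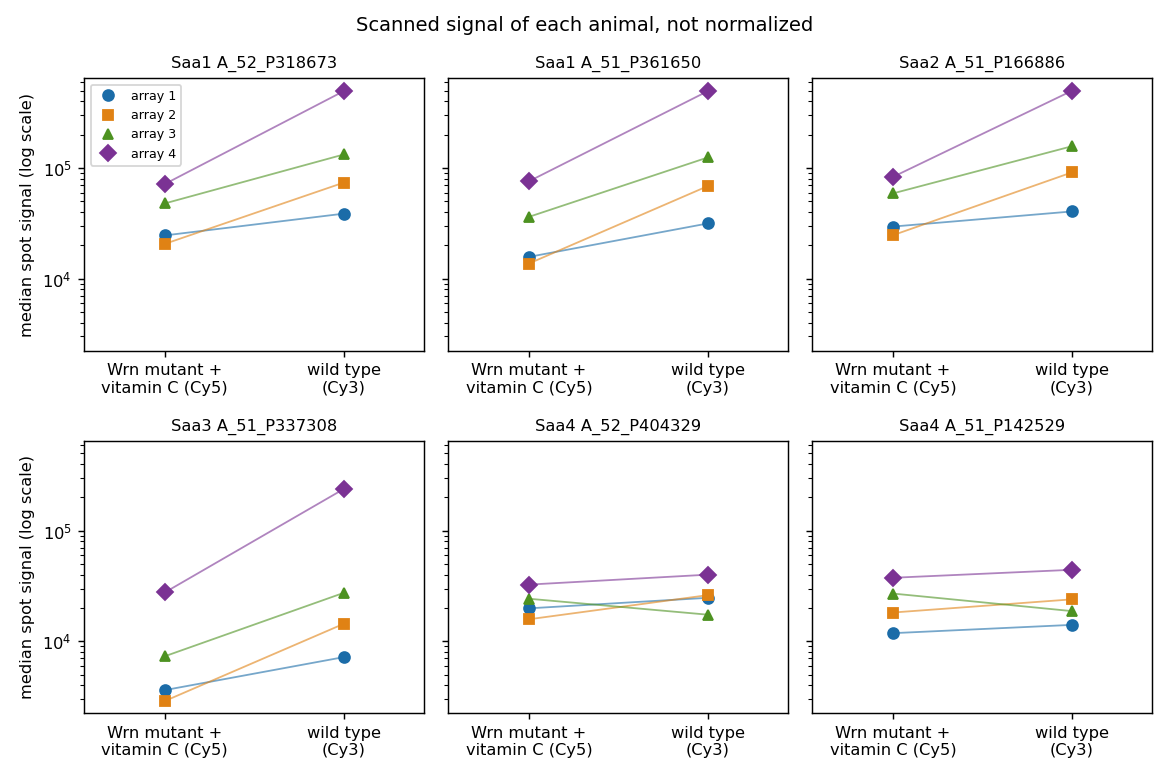
Median spot signal (log axis, scanner units, not normalized) of each Saa probe in the Wrn mutants given vitamin C (left) and the wild-type animals (right), with a line joining the 2 animals of an array. Every line of Saa1, Saa2 and Saa3 runs upward to the wild-type animal and is steepest for array 4, while the Saa4 lines cross.

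The deposited log2 ratios, mutant over wild type after normalization by the authors, were below 0 on all 4 arrays for all 6 probes, a pattern that 16.7% of 26004 genes had. For Saa3 they were -1.17, -2.59, -2.55 and -4.34 on arrays 1, 2, 3 and 4. For the Saa1 probe A_52_P318673 they were -0.97, -2.43, -2.35 and -4.20, and for A_51_P361650 they were -1.28, -2.86, -2.64 and -4.13. For Saa2 they were -0.78, -2.52, -2.32 and -4.02. Array 1 had the smallest difference in all 4 of these probes, array 4 the largest, and arrays 2 and 3 lay close together. The mean log2 ratio was -2.66 ± 1.30 for Saa3, -2.49 ± 1.33 and -2.73 ± 1.17 for the Saa1 probes and -2.41 ± 1.32 for Saa2 (SD, n = 4). Expressed as wild type over mutant, the mean difference was 6.33-fold for Saa3, 5.61-fold and 6.63-fold for Saa1 and 5.31-fold for Saa2. The members were thus close in their means, while the arrays of 1 probe differed widely. Single arrays ran from 1.72-fold (Saa2, array 1) to 20.3-fold (Saa3, array 4). Without array 4 the mean log2 ratios were -2.10 for Saa3, -1.92 and -2.26 for Saa1 and -1.88 for Saa2.

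**Figure D2:**
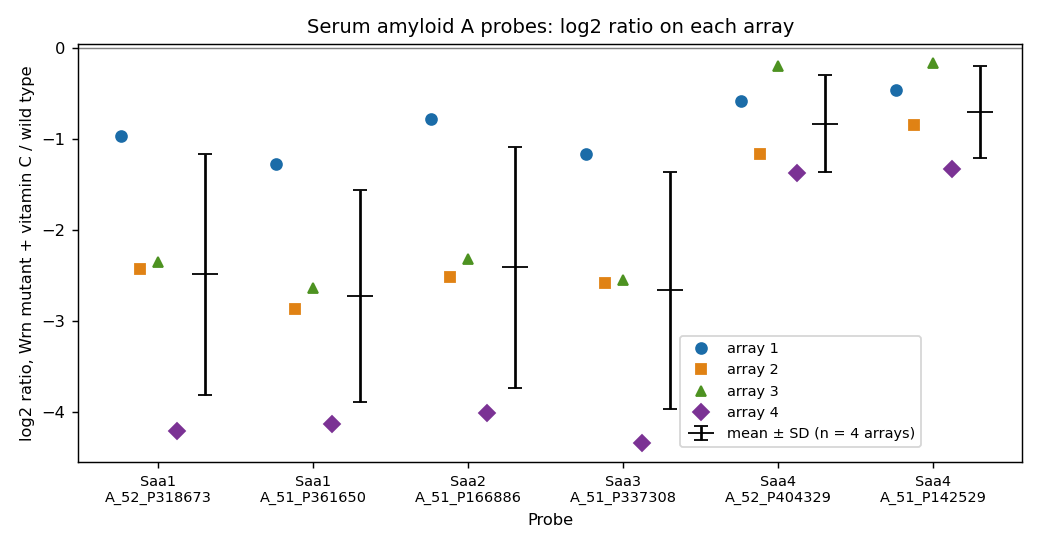
Deposited log2 ratio, Wrn mutant given vitamin C over wild type, of each Saa probe on each of the 4 arrays (points), with the mean and SD over arrays. The probes of Saa1, Saa2 and Saa3 have means between -2.73 and -2.41, and the Saa4 probes have means of -0.83 and -0.70.

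Saa4, the constitutive member, differed least. Its probe A_52_P404329 had signals of 19859, 15819, 24266 and 32556 in mutants and 24737, 26149, 17408 and 40041 in wild-type animals. The probe A_51_P142529 had 11850, 18211, 27028 and 37526 in mutants and 14084, 23948, 18756 and 44303 in wild-type animals. The scanned signals of the groups overlapped in both probes, and on array 3 the mutant signal was above the wild-type signal. After normalization the log2 ratios were -0.59, -1.17, -0.20 and -1.37 for A_52_P404329 and -0.47, -0.85, -0.17 and -1.34 for A_51_P142529. Their means were -0.83 ± 0.54 and -0.70 ± 0.50 (SD, n = 4), or 1.78-fold and 1.63-fold as wild type over mutant. Without array 4 the means were -0.66 and -0.49, and without array 3 they were -1.04 and -0.88. The difference between Saa4 and the inducible members was present on every array: the log2 ratio of Saa1 (A_52_P318673) was below that of Saa4 (A_52_P404329) by a mean of -1.65 ± 1.07, with single arrays between -2.83 and -0.38. Wild-type animals varied less in Saa4, over 2.30-fold and 3.15-fold, beside 12.8-fold and 15.7-fold in the Saa1 probes.

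The neighbouring gene Saal1, which is not a serum amyloid A gene despite its name, had a log2 ratio of 0.03 ± 0.14 (SD, n = 4; limma adjusted p = 0.764).

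Normalization moved the family's ratios downward, most of all on arrays 3 and 4. Before normalization, with the local background subtracted, the log2 ratios of the Saa1 probe A_52_P318673 were -0.66, -1.84, -1.47 and -2.79 on arrays 1, 2, 3 and 4. Those of Saa3 were -1.01, -2.34, -1.92 and -3.11. The Saa4 probe A_52_P404329 had -0.32, -0.73, 0.48 and -0.30, so its array 3 value was above 0 before normalization and below 0 after it. Bright spots had shifted dye ratios in general: the 200 probes closest in brightness to A_52_P318673 had median raw log2 ratios of 0.27, 0.59, 0.96 and 1.65 on the 4 arrays. With each array centred on its overall median in place of the intensity-dependent correction, the mean log2 ratios were -2.42 for Saa3, -2.03 and -2.30 for Saa1, -1.93 for Saa2 and -0.56 and -0.43 for Saa4. Saa1, Saa2 and Saa3 were below 0 on every array under each of these scalings. The array 3 ratios of the Saa4 probes were -0.02 and 0.03 with median centring.

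**Figure D3:**
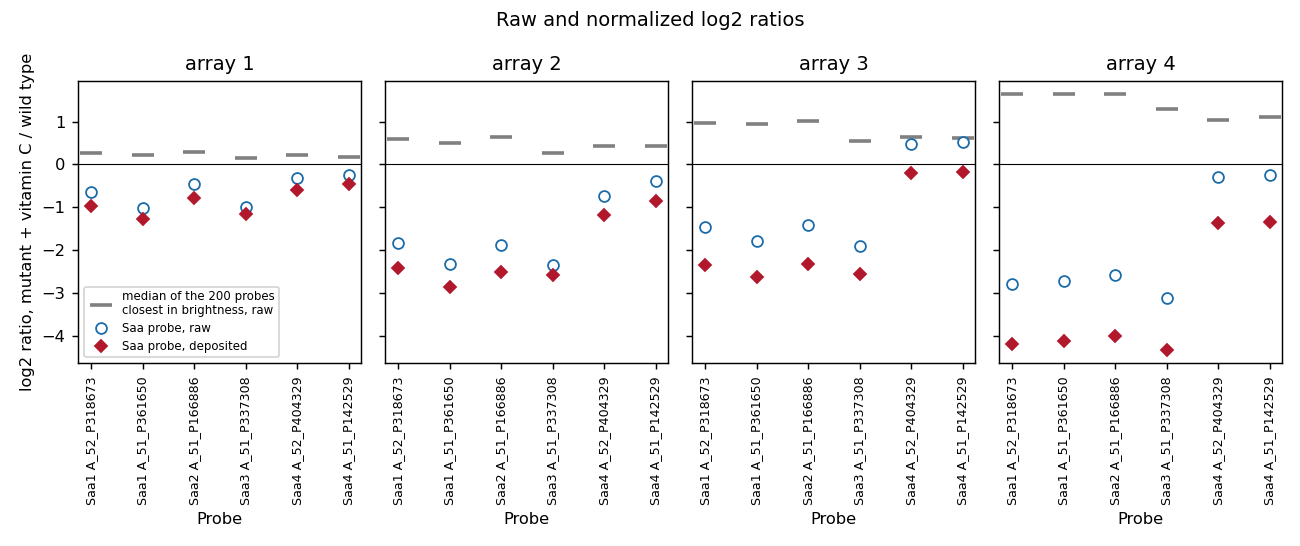
Raw and normalized log2 ratios, mutant given vitamin C over wild type, of the 6 Saa probes on each array, beside the median raw log2 ratio of the 200 probes of closest brightness. The raw Saa4 values of array 3 lie above 0, and all values of Saa1, Saa2 and Saa3 lie below 0.

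Probe by probe, Saa1, Saa2 and Saa3 moved almost in parallel, and how much signal these probes share through related transcripts was not tested. The Saa1 probe A_52_P318673 and the Saa3 probe differed by 0.18 ± 0.03 in log2 ratio over the 4 arrays, although the ratios themselves spread over more than 3 log2 units. That Saa1 probe differed from Saa2 by -0.08 ± 0.13 and from the second Saa1 probe by 0.24 ± 0.22. The Saa4 probes differed from each other by -0.13 ± 0.14. Across the 8 channels, which share arrays and normalization, the normalized level of that Saa1 probe correlated with the other Saa1 probe at r = 0.996, with Saa2 at r = 0.999, with Saa3 at r = 0.982 and with the Saa4 probes at r = 0.891 and r = 0.903 (a description of 8 animals, with no test).

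Normalized log2 levels, taken per channel after loess and Aquantile scaling, show where the spread lay. Saa2 had levels of 14.72, 14.22, 15.44 and 15.76 in mutants and 15.50, 16.73, 17.75 and 19.76 in wild-type animals. Saa3 had 11.78, 11.34, 12.55 and 14.16 in mutants and 12.94, 13.90, 15.09 and 18.50 in wild-type animals. In Saa1, Saa2 and Saa3, 3 of 4 mutants lay below every wild-type animal, and the exception was mutant 4, which lay above wild-type animal 1 in every probe, in the Saa1 probe A_52_P318673, at 15.57 against 15.42. The levels ran over 1.54 to 2.83 log2 units among mutants and over 4.26 to 5.56 among wild-type animals in these 4 probes. Array 4 carried the highest animal of both groups. In Saa4, all mutants lay below all wild-type animals with A_52_P404329, by a margin of 14.46 against 14.47, and the groups overlapped with A_51_P142529. All mutant levels were below all wild-type levels in 4.2% of 26004 genes. In a whole liver, fewer cells of a type and less RNA per cell cannot be told apart.

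Other hepatocyte acute phase genes were low in the mutant mostly on array 4. Of 28 such genes other than Saa, 3 fell, 0 rose and 25 did not pass the limma test. The 3 that fell are 10.7% of the list, where 5.28% of all genes were lower and 11.8% passed in either direction. The split turned with median centring, to 2 lower (Fgl1 and Steap4) and 7 higher. Those that fell were Fgl1, a liver-secreted fibrinogen-like protein, at -1.79 ± 0.78 (adjusted p = 0.0195), Steap4, a metalloreductase, at -0.61 ± 0.26 (adjusted p = 0.0214), and the haem-binding protein hemopexin (Hpx) at -0.92 ± 0.68 (adjusted p = 0.0495; log2 ratio, SD, n = 4). A second Fgl1 probe was at 0.33 ± 0.05, and Hpx passed under none of 11 alternative settings. The count was 0 without array 1, 0 without array 2, 2 without array 3 and 2 without array 4. The list's median log2 ratio was -0.45, beside 0.01 over all genes tested.

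Array by array, the median log2 ratio of these 28 genes was -0.19, -0.27, 0.07 and -1.08 on arrays 1, 2, 3 and 4, and without array 4 the median of the means was -0.15. Of the 28, 25 had their lowest ratio on array 4 (89.3%, against 24.0% of all genes), and 25 had wild-type animal 4 as the highest of the wild-type animals (89.3%, against 21.1%). Mutant 4 was the highest mutant in 14 of 28 (against 17.2% of all genes). Wild-type animal 4 thus held the highest levels of most of this list and of the Saa genes. Log2 ratios were below 0 on all 4 arrays in 9 of the 28 genes, Fgl1 among them, and in Saa1, Saa2 and Saa3, which were at -0.78 or below on each array.

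Several strongly inducible genes, named after their values were seen, show the same animal. Lcn2, a siderophore-binding protein, had normalized log2 levels of 8.44, 8.44, 8.84 and 12.34 in mutants and 8.80, 9.27, 8.96 and 15.54 in wild-type animals. The metallothionein Mt2 had 11.83, 11.70, 12.26 and 12.54 in mutants and 12.21, 12.14, 12.15 and 16.47 in wild-type animals. In both genes wild-type animal 4 stood far above the other wild-type animals. Orm2, which encodes an orosomucoid, had 14.56, 14.32, 14.66 and 14.77 in mutants and 15.15, 14.94, 14.46 and 17.57 in wild-type animals. Their mean log2 ratios were -1.16 ± 1.40 for Lcn2, -1.16 ± 1.87 for Mt2 and -0.95 ± 1.29 for Orm2, and none passed (limma adjusted p = 0.144, 0.249 and 0.184). Fgl1 was below 0 on every array, with log2 ratios of -1.92, -1.11, -1.28 and -2.83 on arrays 1, 2, 3 and 4.

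**Figure D4:**
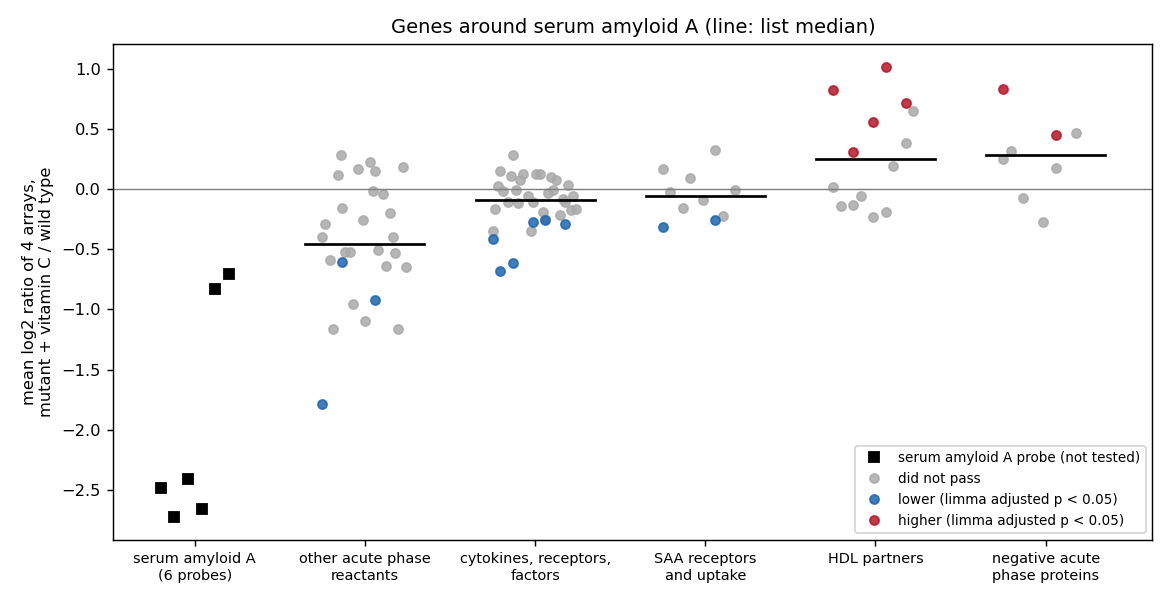
Mean log2 ratio of 4 arrays, mutant given vitamin C over wild type, of the genes in each list around serum amyloid A, with the list median as a line and the limma calls marked. The Saa1, Saa2 and Saa3 probes lie lowest, and the Saa4 probes lie within the range of the other acute phase genes. The median of those other genes is -0.45, and the median of the HDL partners is 0.25.

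Among the cytokines, receptors and transcription factors that act on Saa promoters, 6 of 36 measured genes fell (16.7%, against 5.28% of all genes), 0 rose and 30 did not pass, and Lif was not measured. With median centring 2 were lower, Il1r1 and Nfkbiz, and 4 were higher that had not passed before, Il1a, Il1rap, Tnfrsf1a and Socs3. The cytokine transcripts themselves did not pass: Il6 had a log2 ratio of -0.06 ± 0.18 (adjusted p = 0.646), Il1b one of -0.01 ± 0.49 (adjusted p = 0.978) and Tnf one of 0.03 ± 0.17 (adjusted p = 0.812). The genes that fell belong to several steps. Il1r1, the interleukin-1 receptor, fell by 0.62 ± 0.30 on the log2 scale (adjusted p = 0.0259), and Nfkbiz, a nuclear co-regulator of NF-kB, fell by 0.68 ± 0.30 (adjusted p = 0.0214). Nfkbia, the NF-kB inhibitor and itself an NF-kB target, fell by 0.27 ± 0.09 (adjusted p = 0.0305).

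The hepatocyte factors Cebpa and Hnf4a and the kinase Jak1 also passed, at -0.41 ± 0.13, -0.25 ± 0.10 and -0.29 ± 0.15 (limma adjusted p = 0.0199, 0.037 and 0.0407). Their other probes differed from these: 0.15 ± 0.23 for Cebpa, -0.01 ± 0.11 and -0.16 ± 0.30 for Hnf4a, and -0.00 ± 0.09 and 0.03 ± 0.10 for Jak1. Stat3 was at -0.35 ± 0.40 and Cebpb at -0.25 ± 0.36, and Cebpd was at 0.28 ± 0.37, all without passing (limma adjusted p = 0.141, 0.231 and 0.185). The list median was -0.09. The count of 6 was 1 without array 1, 0 without array 2, 3 without array 3 and 1 without array 4. Il1r1 and Nfkbiz passed in 7 of 11 alternative settings each, Nfkbia in 5, Cebpa and Jak1 in 4 and Hnf4a in 3.

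Genes of the receptors and uptake routes of serum amyloid A changed little. Of 10, the HDL receptor Scarb1 fell by 0.31 ± 0.16 (adjusted p = 0.0369) and the related lysosomal protein Scarb2 fell by 0.26 ± 0.10 (adjusted p = 0.0366), and 8 did not pass, where 5.28% of all genes were lower. The fatty acid and lipoprotein receptor Cd36 had the largest mean of the list without passing, at 0.32 ± 0.69 (adjusted p = 0.387). The median was -0.06. The count of 2 was 0 when any 1 of arrays 1 to 4 was left out, and 0 with median centring.

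HDL carries the serum amyloid A proteins, and 5 of the 14 genes of its other proteins and of its remodelling were higher in the mutant (35.7%, against 6.55% of all genes), with 0 lower and 9 not passing. Apoc1, a small apolipoprotein of HDL and triglyceride-rich particles, rose by 1.02 ± 0.11 on the log2 scale (adjusted p = 0.00361). It had ratios of 1.07, 1.12, 0.87 and 1.02 on arrays 1, 2, 3 and 4, so it varied little where Saa varied most. Apoa2, the second main HDL apolipoprotein, rose by 0.83 ± 0.18 (adjusted p = 0.00917) and Apoe rose by 0.72 ± 0.16 (adjusted p = 0.0111). In all 3 genes the mutant levels lay above all wild-type levels, with Apoc1 at 18.44 to 18.50 in mutants and 17.31 to 17.58 in wild-type animals. All mutant levels were above all wild-type levels in 3.26% of 26004 genes.

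The other HDL genes gave a less even picture. Apoc3, an inhibitor of triglyceride clearance, rose by 0.31 ± 0.15 (adjusted p = 0.0383). Pon1, an HDL-bound esterase, was at 0.56 ± 0.29 by its brighter probe (limma adjusted p = 0.0289) and at -0.45 ± 0.15 by its other probe. Apoa1, the main HDL protein, which serum amyloid A can displace, was at -0.13 ± 0.22 and did not pass (limma adjusted p = 0.342), and its mean was 0.47 with median centring. The list median was 0.25. The count of 5 was 3 without array 1, 1 without array 2, 4 without array 3 and 3 without array 4. Apoc1 passed in all 11 alternative settings, Apoa2 and Apoe in 10 each, Apoc3 in 5 and Pon1 in 4. None of these settings can separate the groups from a dye effect on bright probes, since there was no dye swap.

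Negative acute phase proteins are those whose plasma level drops when serum amyloid A rises. Of 8 measured, 2 were higher in the mutant (25.0%, against 6.55% of all genes), 0 lower and 6 not passing, with a median of 0.29, and Tf was not measured. Albumin (Alb) rose by 0.83 ± 0.21 (adjusted p = 0.0111), with ratios of 0.69, 0.63, 1.05 and 0.96 on arrays 1, 2, 3 and 4. The thyroxine carrier Ttr rose by 0.45 ± 0.22 (adjusted p = 0.0282), and Rbp4, the retinol carrier, was at 0.47 ± 0.34 (adjusted p = 0.0529). The Alb levels were 18.32 to 18.53 in mutants and 17.43 to 17.68 in wild-type animals, and array 4 did not stand apart. The count of 2 was 1 without array 1, 0 without array 2, 1 without array 3 and 1 without array 4. With no dye swap, a dye effect on such bright probes cannot be told apart from the groups.

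Markers of cells that can make Saa3 or that enter an inflamed liver gave no call. None of 11 measured neutrophil markers, 10 Kupffer cell and macrophage markers or 7 adipocyte markers passed the limma test. The summed level of the neutrophil list was 6724 to 8459 units in mutants and 7141 to 8611 in wild-type animals. That of the macrophage list was 75232 to 102397 in mutants and 81076 to 121062 in wild-type animals, and that of the adipocyte list was 7656 to 9406 in mutants and 8073 to 8889 in wild-type animals. The groups overlapped in all 3 lists. The neutrophil gene S100a9 had the lowest log2 ratio of its list, at -0.45 ± 0.37 (adjusted p = 0.0665), with -0.93 on array 4. Macrophage markers also moved with the arrays: all 10 were below 0 on array 4, against 1, 5 and 0 of 10 on arrays 1, 2 and 3. Every Saa probe, not only that of Saa3, had its lowest ratio on array 4. The median log2 ratio of the macrophage markers was 0.25, -0.05, 0.26 and -0.30 on arrays 1, 2, 3 and 4. Among the wild-type animals, 8 of the 10 were highest in animal 4, as were 21.1% of all genes. The lowest of these markers on array 4 was Cd5l, a protein secreted by macrophages, at -0.87.

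Some markers of other cell types passed, and most of these calls depended on the settings. Of 6 cholangiocyte markers, Spp1, Sox9 and Cftr were lower, where 5.28% of all genes were, led by Spp1 at -0.63 ± 0.32 (adjusted p = 0.0263) and Sox9 at -0.62 ± 0.39 (adjusted p = 0.0392). The other Sox9 probes were at 0.02 ± 0.07 and -0.25 ± 0.35. Cftr was at -0.205 ± 0.05 (limma adjusted p = 0.0414) and was well above background on only 3 arrays in each channel. Epcam, Krt7 and Krt19 did not pass, at -0.18 ± 0.20, -0.08 ± 0.19 and 0.03 ± 1.00 (limma adjusted p = 0.183, 0.496 and 0.966). The summed level of the list was 13145 to 15425 units in mutants and 17971 to 23125 in wild-type animals, but Spp1 made up 81.4% to 90.7% of it. The other 5 markers summed to 1635 to 2458 units in mutants and 2100 to 2350 in wild-type animals, with overlap. Of 7 sinusoidal endothelial markers, Clec4g (-0.35 ± 0.20, adjusted p = 0.0409) and Kdr (-0.24 ± 0.08, adjusted p = 0.0363) were lower, where 5.28% of all genes were. Other Clec4g probes were at 0.05 ± 0.08 and 0.17 ± 0.19, and Stab1 was at -0.30 ± 0.23 (adjusted p = 0.0721). That list summed to 44314 to 48355 units in mutants and 50772 to 60938 in wild-type animals. Clec4g, by the probe that passed, was the brightest marker in this sum and weighed most on it. Its log2 levels were 14.15 to 14.34 in mutants and 14.43 to 14.8 in wild-type animals. Among 10 hepatocyte markers Alb, Ttr and Tat rose, Tat at 0.53 ± 0.26 (adjusted p = 0.0275), and Hnf4a fell. Of all genes, 6.55% were higher and 5.28% lower. None of 7 stellate cell markers passed. Of 11 alternative settings, Alb passed in 10, Spp1 in 7, Tat in 6 and Ttr and Sox9 in 5 each. Clec4g and Kdr passed in 4 each, and Cftr and Hnf4a in 3 each. The part of cell composition in the Saa ratios was not tested.

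The genes whose levels over the 8 animals were most like those of the brightest Saa1 probe were Lrrc45 (r = 0.992), D930043N17Rik (r = 0.973), Ang6 (r = 0.971), Tpp1 (r = 0.966), Ang4 (r = 0.965), Maged1 (r = 0.964), Ang2 (r = 0.964) and Pxk (r = 0.964). The 8 levels of each share arrays and normalization, and r is a description without a test. A Pearson r measures how straight the relation is and not the size of the differences. Lrrc45 ranged over only 0.63 log2 units and Tpp1, a lysosomal peptidase, over 0.50. The angiogenins Ang2, Ang4 and Ang6, secreted ribonucleases related in sequence so that their probes may share signal, ranged over 2.04, 2.07 and 1.92. Ang4 had levels of 12.74, 12.85, 13.08 and 13.27 in mutants and 13.68, 13.56, 13.97 and 14.81 in wild-type animals, with no overlap, unlike Saa1. Wild-type animal 4 was highest, as it was in Saa1, by whose levels these genes were chosen. The mean log2 ratio was -1.02 ± 0.36 for Ang4, -1.004 ± 0.40 for Ang2 and -0.95 ± 0.38 for Ang6 (SD, n = 4).

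**Figure D5:**
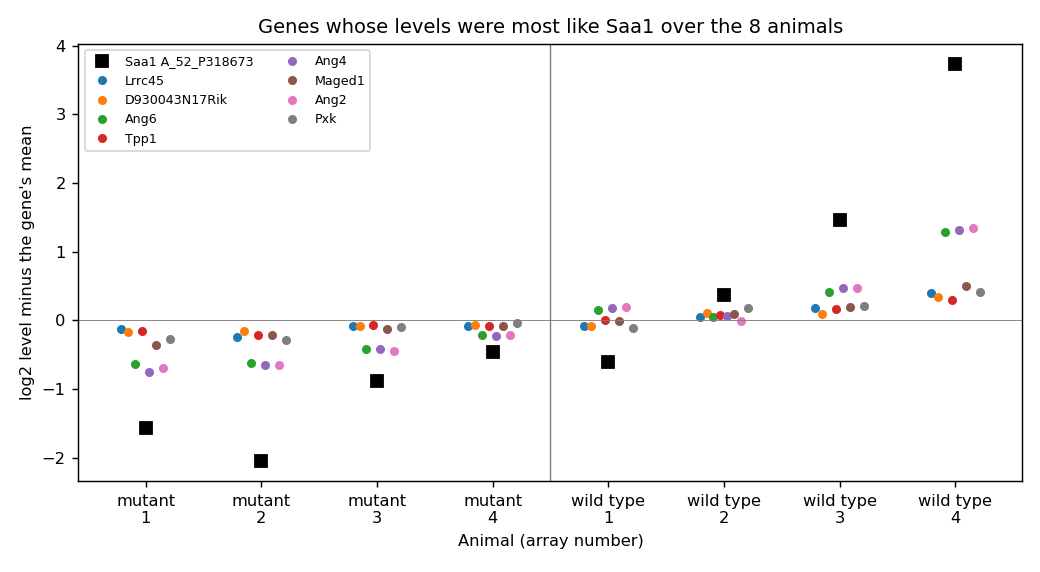
Log2 level minus the gene's own mean in the 4 mutants given vitamin C (left) and the 4 wild-type animals (right), for Saa1 and the 8 genes with the highest correlation with it. Saa1 covers more log2 units than any of the 8. Every gene is highest in wild-type animal 4, which the choice by correlation with Saa1 favours.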

How the data were processed

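The 4 arrays lay on 1 slide with 1 scan time. Per the file headers, Agilent Feature Extraction 10.5.1.1 gave the spot intensity values, and the array design uses mm9. Processed intensity and its log10 ratio were also deposited. The authors' deposited table gives log2 ratios per array, with p-values and, as scores, moderated statistics, log odds and signed fold changes. The submitters' processing notes name limma. The log2 ratios equalled background subtraction and loess of the scanner medians (r = 1, slope 1 on each array).

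Those log2 ratios were used throughout. Control spots and outlier flags were removed, spots averaged per probe, and 39080 of 41174 probes kept (well above background on at least 3 arrays in a channel). The brightest probe stood for a gene, named through RefSeq (GRCm38.p6) or the deposited symbol; 13.9% had no name. Mean ratios were tested against 0 with limma 3.58.1 in R 4.3.3 (lmFit, eBayes), Benjamini-Hochberg over 26110 genes. Ratios of the Saa probes were not tested. Channel levels followed loess and Aquantile and are open to dye bias; summed levels are on the unlogged scale. Per array, the mutant and wild-type channels with the same number are paired by hybridisation. Alternatives changed background (normexp, offset 50), normalization, filter, probe rule and pairing, and left out each array in turn.

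Named were list members past the threshold, for lists with under 3 such members also the 3 of largest mean, Il6, Il1b and Tnf, the 2 leading markers of lists with a call, and the 8 genes most like Saa1; other genes were named after their values were seen. The family members and gene lists were chosen with earlier results of these data known. The number of arrays limits the precision. Promoters were aligned with Biopython 1.88.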

Additional observations from a re-analysis of the deposited data

Results flagged for a closer look

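Of 86 groups of 4 values checked with Dixon's test, 8 held a value set far apart from the other 3. The chance rate of about 1 in 20 is no yardstick for this count. Lcn2, Mt1 and Mt2 were named after their values were seen, and the levels and ratios of a gene share signals. All 8 values set apart were on array 4. The wild-type animal stood apart in Lcn2, at a log2 level of 15.54, in Mt1 at 15.27 and in Mt2 at 16.47. Mutant 4 stood apart in Lcn2 as well, at 12.34. The log2 ratios of array 4 stood apart in Mt1, at -3.18, in Mt2 at -3.94, in Cftr at -0.28 and in Maged1 at -0.58. No Saa probe had such a value among its ratios or its levels.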

How the results depend on the processing

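The mean log2 ratio of each of the 6 Saa probes stayed below 0 under every alternative run for it and moved by less than its SD between arrays. Only the changes of background and normalization could have given another outcome. Leaving out an array could not, since every ratio was below 0 and a single array cannot shift the mean by the SD. Ignoring the pairing returns the mean of the normexp and loess ratios. Over the arrays left out in turn the mean ran from -3.21 to -1.88 in Saa1, Saa2 and Saa3 and from -1.04 to -0.49 in Saa4. Centring raw ratios on the 200 probes of closest brightness, chosen after seeing the data, gave -2.56 and -2.78 for Saa1, -2.48 for Saa2, -2.66 for Saa3 and -0.79 and -0.67 for Saa4.

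Counts of calls depended on the processing. The 3087 changed genes were 4921 with median centring, of which 69.4% were higher against 55.4% in the fit reported, 781 with Agilent's processed signals (48.3% higher), 24 with no replicate block (channels not paired; 66.7% higher) and 9 to 977 with 1 array left out. The HDL genes changed (5) were 8 with median centring, 3 with Agilent's signals, 3 without the pairing and 1 to 4 with an array left out. The acute phase genes (3) were 9 with median centring (2 lower, 7 higher), 0 without the pairing and 0 to 2 with an array left out. The cytokine and factor genes (6, all lower) were 6 with median centring (2 lower, 4 higher), 3 with Agilent's signals, 0 without the pairing and 0 to 3 with an array left out. The negative acute phase genes (2) were 5 with median centring, 1 with Agilent's signals, 1 without the pairing and 0 to 1 with an array left out. The receptor genes (2) were 0 with median centring, with Agilent's signals, without the pairing and with any 1 array left out. Of 22 named calls in the lists, 8 were lost with median centring, 12 with Agilent's signals and 18 without the pairing. Leaving out an array cost 16 of them for array 1, 21 for array 2, 13 for array 3 and 15 for array 4. Averaging over all probes that read a gene cost 7. None of the 22 reversed in these settings. The cause of these differences was not tested. A block for slide or scan was not run, since there was 1 of each.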
